A study of Mus musculus with 21 samples.

Results

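The proteins of the mitochondrial ribosome are encoded by nuclear genes, most of which carry the symbols Mrpl (large subunit) and Mrps (small subunit). In the joint count table of endothelial and cardiomyocyte RNA from embryonic mouse heart, 77 of 24421 genes had a symbol starting with Mrpl or Mrps followed by a digit, and these 77 genes are described here. Members were taken by symbol alone, but this group of genes was chosen with earlier results of these data known. Of the 77, 50 encode large subunit proteins and 26 small subunit proteins, counting Mrps30 and Mrps18a with the large subunit, where their proteins sit. The remaining gene, Mrps36, encodes a component of the oxoglutarate dehydrogenase complex, so the symbol does not match its role.

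The mitochondrial ribosome (mitoribosome) sits in the mitochondrial matrix and translates the few messenger RNAs of mitochondrial DNA, which encode core subunits of the respiratory chain and of ATP synthase. Its proteins are translated in the cytoplasm, imported, and assembled on ribosomal RNA made inside the organelle. Many have counterparts in bacterial ribosomes, and others were gained in mitochondria. Cardiomyocytes are rich in mitochondria, and inherited defects in several mitoribosomal proteins cause cardiomyopathy.

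All libraries came from mouse hearts at E12.5 (embryonic days after conception). Endothelial cell (EC) RNA came from 2 libraries of 60000 ventricular cells each, sorted for the reporter Rosa26fsTRAP switched on by Tie2Cre, a driver active in endothelial and endocardial cells and also in blood lineages. Cardiomyocyte (CM) RNA came from 3 libraries labelled only as cardiomyocytes of that age. GATA4, a zinc finger transcription factor of heart development, was biotinylated in the lineage of Tie2-Cre or of Tnnt2-Cre, a cardiomyocyte driver, and pulled down with streptavidin from 15 to 20 pooled ventricles for each library (bioChIP, 3 libraries per lineage). Open chromatin was mapped by omni-ATAC in 2 libraries of 40000 Tie2Cre sorted EC. A further 3 Gata4 het and 3 Gata4 ko libraries each held 20000 EC sorted with the Rosa26mTmG reporter after Cdh5(Pac)-CreERT2 had been switched on by 1 mg tamoxifen at embryonic day 9.5. The labels do not spell out the Gata4 alleles. Nor do they tie replicates to different litters, and the p-values therefore measure the spread between these samples, which may be technical.

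The EC libraries held 27660790 and 21682362 reads assigned to genes and the CM libraries 42948614 to 48393473, with at least 69 reads for each of the 77 genes in every library. The labels held for the main markers: 8 endothelial genes summed to 5089 and 5165 CPM (reads scaled to library size) in EC against 663 to 767 in CM, and 9 cardiomyocyte genes to 519 and 527 CPM against 71192 to 78318. Markers of other cells also moved with the groups. The 8 blood genes summed to 17.5 and 19.1 CPM in EC and 1239 to 3070 in CM, with 2 of 8 at 0 in each group. Nearly all of that sum was the embryonic globin Hbb-y, and 3 red cell genes were lower in EC, whereas the leukocyte genes Itgam and Ptprc were higher in EC at means of 1.30 and 1.36 CPM against 0.0232 and 0.0792. The 8 epicardial and fibroblast genes split, with Postn, Col1a1, Pdgfra and Tcf21 higher in EC and Tbx18, Dcn, Upk3b and Wt1 lower. Their sum, 1434 and 1511 CPM in EC against 537 to 567, was mostly Postn (915 against 166). The ribosomal precursor Rn45s took 5.34% and 5.77% of EC counts and 0.118% to 0.200% of CM counts. In the table header the CM file names carry a tag that the EC file names lack, and no source used here says what it marks. The part of these differences in the results below was not tested, and in bulk libraries fewer cells of a type and less RNA per cell cannot be told apart.

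Most mitoribosomal genes were lower in EC than in CM. All 77 passed the filter on low counts, and 56 were lower in EC, 8 were higher and 13 did not pass edgeR's quasi-likelihood test at a Benjamini-Hochberg adjusted p of 0.05. These are 72.7% and 10.4% of the members. Of the 14851 genes tested, 40.2% were lower and 37.5% higher by the same rule, so that a call in either direction was common (77.8% of genes), and most calls among the 77 were in 1 direction. At least 2-fold lower were 30 members (39%, against 22.6% of all genes), and 0 were at least 2-fold higher by fitted value (22.2% of all genes). The median log2 fold change, EC minus CM, was -0.76 (middle range -1.17 to -0.19) against -0.06 over all genes tested. The spread over the 77 was an SD of 0.75 log2 units, against 2.09 over all genes. In 59 members every CM library lay above both EC libraries (44.4% of all genes), in 11 every EC library lay above the CM libraries (40.8%), and 7 overlapped.

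The size of this shift depends on the scale. On levels per length (TPM, the share of each gene among all transcripts), on which the 77 genes together summed to 4894 and 5036 in EC and 7419, 7422 and 7640 in CM, the median of all genes moved up by 0.34 log2 units, and 50 members were lower and 15 higher. All genes then split into 4435 lower and 7187 higher, against 5972 and 5575 before. Relative to the median of all genes, the members' median was -0.70 on both scales. That likeness was fixed in advance, because the change of scale moves the log2 fold changes of all genes by nearly the same amount. In shares of all counts, the 77 genes took 0.195% and 0.201% of EC reads and 0.352% to 0.372% of CM reads, without overlap.

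Genes of both ribosomal subunits were lower in EC. In the large subunit 35 of 50 genes were lower, 5 higher and 10 did not pass, with a median log2 fold change of -0.77. In the small subunit 20 of 26 were lower, 3 higher and 3 did not pass, with a median of -0.74. Genes for proteins with a bacterial counterpart (45) had 33 lower and 5 higher at a median of -0.71, and genes for mitochondria-specific proteins (31) had 22 lower and 3 higher at a median of -0.95. The 10 mitochondria-specific proteins of the small subunit had the lowest median of these classes, -1.13, with 7 lower and 1 higher. Differences between these classes were not tested.

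Mrpl15 (mm10 chr1:4773200-4785726, minus strand), a large subunit protein with a bacterial counterpart, showed the greatest difference. It stood at 19.6 and 13.8 CPM in EC and at 92.1, 99.7 and 98.7 in CM, with means of 16.7 ± 4.15 (SD, n = 2) and 96.8 ± 4.11 (SD, n = 3). The log2 fold change was -2.53 (SE 0.13, edgeR adjusted p = 2.34e-08). The groups lay far apart, although the EC libraries differed from each other by 1.43-fold. Mrps22 (chr9:98588730-98601679, minus strand), a mitochondria-specific small subunit protein linked to cardiomyopathy, stood at 24.2 and 26.7 CPM in EC and 140.2, 122 and 123 in CM, 5.06-fold higher in CM (edgeR adjusted p = 3.64e-09). Mrps9 (chr1:42851233-42905683, plus strand), a small subunit protein with a bacterial counterpart, had 29.8 and 27.5 CPM in EC and 126, 122 and 119 in CM, 4.26-fold higher in CM (edgeR adjusted p = 2.47e-09). In each of these genes the lowest CM library was far above the highest EC library.

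Mrpl42, a mitochondria-specific large subunit protein, gave the tightest CM values of the leading genes, 143, 142 and 145 CPM, against 38.1 and 34.8 in EC. Mrps25 (26.6 and 24.1 CPM in EC, 95.8, 89.7 and 93.3 in CM) and Mrps30 (27.6 and 27.5 CPM in EC, 114, 95.2 and 92.6 in CM) had the same log2 fold change of -1.87 to 2 decimals. Mrps35, another mitochondria-specific small subunit protein, was at 32.8 and 25.8 CPM in EC and 83.8, 89.0 and 89.3 in CM, and Mrpl30 at 27.7 and 25.4 against 78.6, 73.8 and 76.8. None of these overlapped between groups. Mrpl18, whose bacterial counterpart binds ribosomal RNA in the large subunit, reached the highest CPM of all members in CM, 182, 164 and 163, against 51.2 and 66.5 in EC. Mrps36, the oxoglutarate dehydrogenase component, was at 5.67 and 3.12 CPM in EC and 12.9, 13.8 and 14.3 in CM, a log2 fold change of -1.61 (SE 0.21, edgeR adjusted p = 3.5e-05). Its EC libraries differed by 1.82-fold. It and Mrps6 were the only members over 1.5-fold apart between the EC libraries, and no member was over 1.5-fold apart between any pair of CM libraries. Without Mrps36, 55 of 76 genes were lower, at a median of -0.76.

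**Figure D1:**
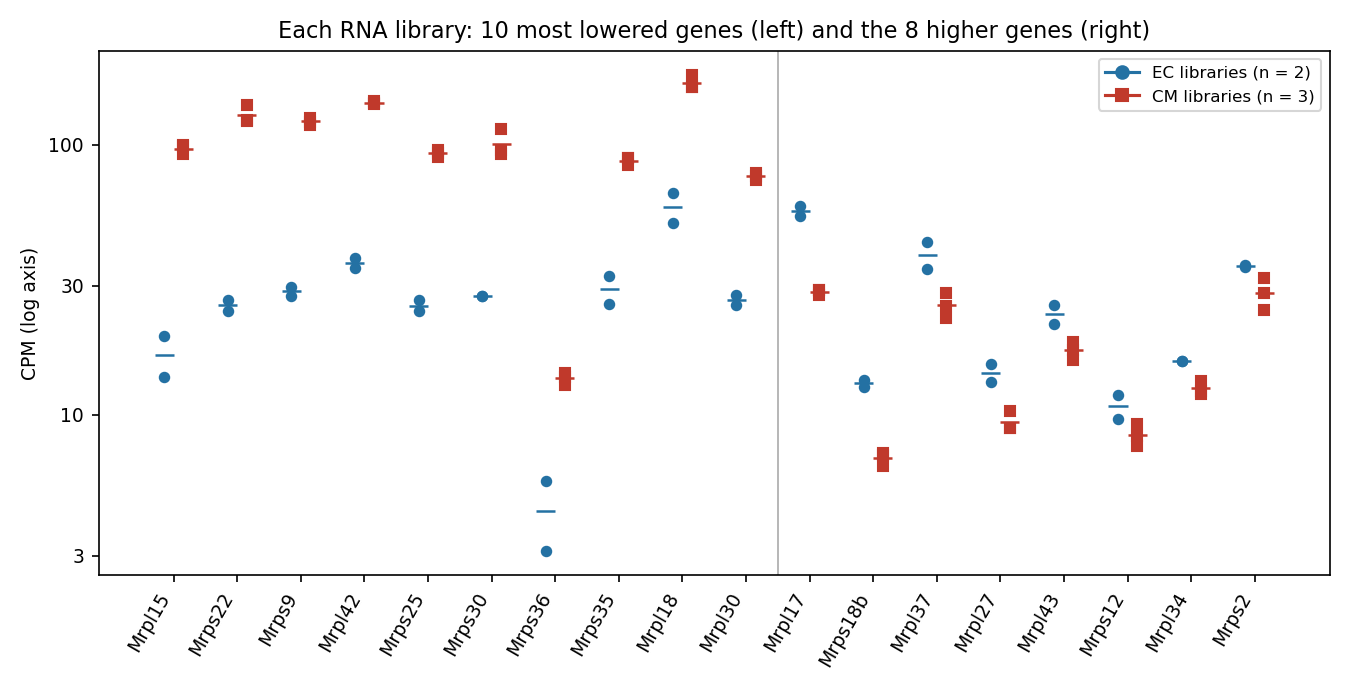
CPM of each RNA library on a log axis for the 10 most lowered members (left) and the 8 higher members (right), with EC as circles, CM as squares and group means as bars. The groups do not overlap for any gene shown; the gap is widest for Mrpl15 (means 16.7 and 96.8 CPM) and narrow for Mrps2, Mrpl34 and Mrps12.

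Mrpl17 (chr7:105803782-105811087, minus strand) led the 8 genes that went the other way. This large subunit protein, with a bacterial counterpart, was at 59.4 and 54.5 CPM in EC and 28.9, 28.9 and 27.8 in CM, 2.0-fold higher in EC (log2 fold change 1.00, SE 0.08, edgeR adjusted p = 8.15e-07). Mrps18b, a mitochondria-specific small subunit protein, followed at 12.7 and 13.5 CPM against 6.47, 7.08 and 7.25 (log2 fold change 0.91, edgeR adjusted p = 7.4e-05). Both EC libraries were well above the CM libraries in both genes. Mrpl37, a mitochondria-specific large subunit protein, had 43.5 and 34.6 CPM in EC and 22.8, 25.3 and 28.3 in CM. Mrpl27, whose bacterial counterpart lies at the peptidyl transferase centre, had 15.4 and 13.2 against 10.4, 8.94 and 8.91. Mrpl43 had 25.4 and 21.8 against 18.6, 17.4 and 16.0. These 3 genes rose by 0.62, 0.61 and 0.45 on the log2 scale, with edgeR adjusted p of 0.000824, 0.00165 and 0.0041. The other three, Mrps12 (a decoding centre protein), Mrpl34 and Mrps2, had log2 fold changes of 0.36, 0.34 and 0.33 and edgeR adjusted p of 0.0439, 0.0184 and 0.0239. Mrps12 lost its call when EC replicate 1, CM replicate 2 or CM replicate 3 was left out, Mrpl34 without either EC library or CM replicate 2, and Mrps2 without any 1 library except CM replicate 3. Mrpl43 lost it without EC replicate 1 (adjusted p = 0.0541), and the count of higher genes was then 4.

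The 13 members that did not pass were spread around 0. Mrpl20, Mrps27, Mrpl46, Mrpl44, Mrps34 and Mrpl50 had log2 fold changes of -0.24 to -0.06, and Mrpl38, Mrpl14, Mrps6, Mrpl22, Mrpl4, Mrpl10 and Mrpl21 of 0.01 to 0.21. Mrps6, at 17.2 and 10.2 CPM in EC and 12.7, 13.5 and 12.4 in CM, changed sign with the EC library used. Its log2 fold change was -0.34 when EC replicate 1 was dropped and 0.41 when EC replicate 2 was dropped. Its annotation shares 18.6% of its exon bases with Slc5a3 on the same strand. Mrpl21 came nearest to a call (35.0 and 36.7 CPM in EC, 32.7, 29.5 and 31.0 in CM, adjusted p = 0.0526 by edgeR). Its libraries did not overlap, and the same held for Mrpl10 and Mrpl4 with EC above, and for Mrpl20, Mrpl46 and Mrpl44 with CM above. Mrpl12, the stalk protein that contacts elongation factors, was at 44.9 and 49.97 CPM in EC and 98.6, 100.5 and 97.5 in CM (log2 fold change -1.06), whereas its stalk partner Mrpl10 was at 25.8 and 25.9 against 22.8, 22.7 and 23.4 (0.17, not passing). The difference between the stalk genes was not tested. Mrpl45, which holds the ribosome at the inner membrane, was lower in EC by 0.66 log2 units.

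The 3 Mrps18 genes are paralogs related to the same bacterial ribosomal protein. Only the product of Mrps18c takes its place in the mitoribosome, so that Mrps18c is counted here as having a bacterial counterpart and Mrps18a and Mrps18b as mitochondria-specific. Mrps18a had 14.4 and 12.1 CPM in EC and 30.7, 28.7 and 28.3 in CM, a log2 fold change of -1.14. Mrps18c, with 23.5 and 24.2 CPM against 34.5, 29.95 and 28.2, had -0.37 (edgeR adjusted p = 0.00845), and Mrps18b was higher in EC, as given above. Of the genes known from inherited cardiomyopathy, Mrps22, Mrpl3 (44.4 and 34.2 CPM in EC, 82.2, 81.2 and 87.4 in CM) and Mrps14 (25.1 and 28.9 against 47.0, 44.4 and 43.1) were lower in EC, with log2 fold changes of -2.34, -1.08 and -0.73. Mrpl44 was not called (17.5 and 16.9 CPM in EC, 19.5, 19.2 and 18.3 in CM, edgeR adjusted p = 0.225), although its CM libraries were all above its EC libraries.

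RNA levels differed widely between ribosomal proteins. On the TPM scale, which corrects for length, the highest levels in EC were those of Mrpl54 (192 TPM), Mrps21 (181), Mrpl18 (177), Mrpl42 (158) and Mrpl13 (157). In CM they were those of Mrpl42 (491 TPM), Mrpl18 (403), Mrps21 (309), Mrpl54 (262) and Mrpl30 (252). The lowest levels in EC were 11.4 TPM for Mrpl57, 11.5 for Mrpl15 and 12.1 for Mrps25, and in CM 9.69 for Mrpl17, 14.6 for Mrpl57 and 15.0 for Mrps18b. The range from lowest to highest was 16.8-fold in EC and 50.6-fold in CM, with an SD over genes of 0.97 and 1.19 log2 units. The order was broadly shared (Spearman rho of EC and CM TPM 0.78 over 77 genes). Over the same genes the log2 fold change had a rho of -0.36 with mean TPM and 0.03 with gene length. These correlations run across genes, which share libraries and are not independent, and mean TPM shares its CM values with the fold change. Mrpl17 has an annotated exon length of 6712 bases and Mrps25 of 6065, against a median of 1053, so TPM of these genes depends on whether the long form is the one expressed.

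**Figure D2:**
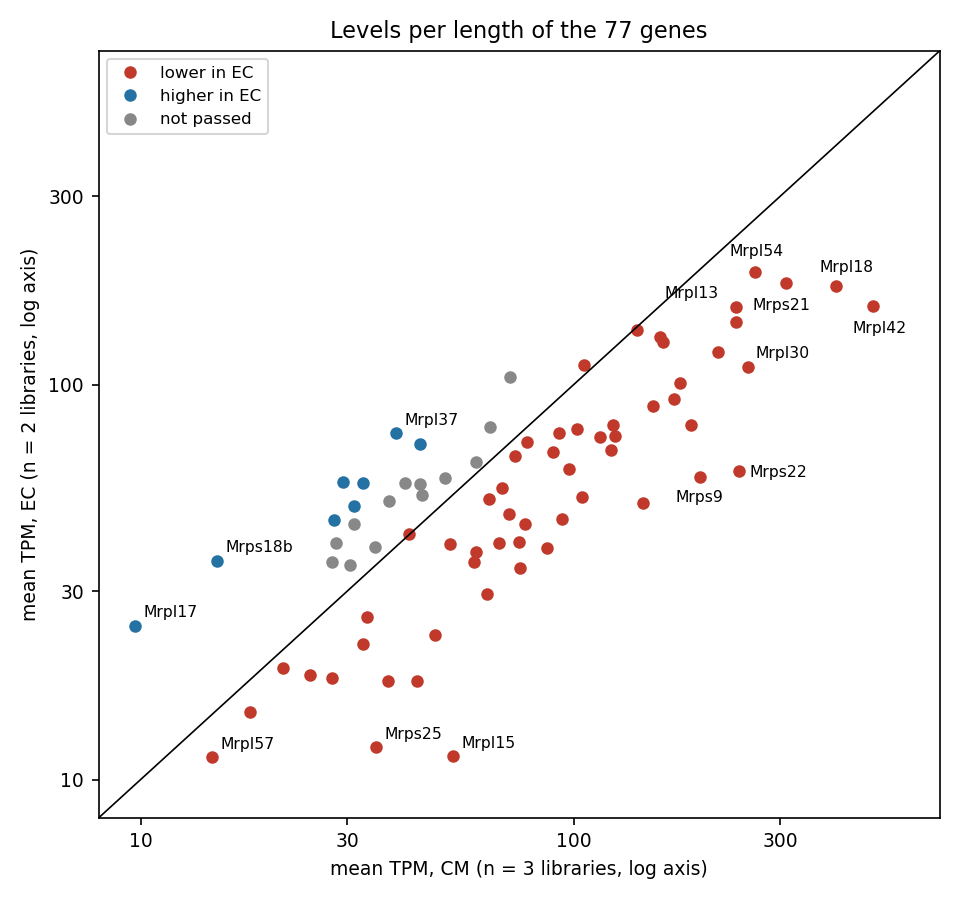
Mean TPM in EC (2 libraries) against mean TPM in CM (3 libraries), both on log axes, for the 77 genes, coloured by their call on counts, with the line of equal TPM. Most points lie below the line and the spread is wider in CM, where Mrpl42 reaches 491 TPM and Mrpl17 9.69; a few genes called lower on counts lie on or just above the line.

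Other parts of mitochondrial translation were mostly lower in EC as well. Mitoribosomal proteins with other names were lower in 6 of 6 cases, at a median log2 fold change of -1.46. Ptcd3, a pentatricopeptide protein of the small subunit, had 50.1 and 51.6 CPM in EC and 177, 173 and 180 in CM (-1.80), and Ict1, the ribosome-bound peptidyl-tRNA hydrolase now named Mrpl58, had -0.63. Translation factors were lower in 15 of 15 cases, at a median of -1.18. The elongation factor Gfm1 led them, with 55.7 and 48.5 CPM in EC and 327, 350.3 and 361 in CM (-2.73, edgeR adjusted p = 7.64e-10), followed by Tsfm (-1.66), the elongation factor partner that recharges Tufm, and by the mRNA stability factor Lrpprc (-1.53). Assembly factors were less uniform, with 16 of 23 lower, 1 higher (Noa1, a GTPase, 0.46) and a median of -0.54. Genes of mitochondrial transcription and RNA processing had 7 of 11 lower and 0 higher at a median of -0.39, led by Trmt10c (-1.65). Polrmt, the mitochondrial RNA polymerase, was not called (18.7 and 19.1 CPM in EC, 18.7, 16.0 and 17.0 in CM). Mitochondrially encoded genes were not analysed here.

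Mitochondrial aminoacyl-tRNA synthetases, which charge the organelle's transfer RNAs, were lower in 14 of 17 cases at a median of -0.95, led by Ears2 (7.65 and 8.65 CPM in EC, 39.9, 36.6 and 46.6 in CM, -2.34). Lars2, the leucine enzyme, was the exception, with 1597 and 1308 CPM in EC and 27.8, 43.5 and 43.4 in CM (5.25). It moved with Rn45s, which took 5.34% and 5.77% of EC counts against at most 0.200% in CM, and the part of that RNA in the Lars2 counts was not tested. For comparison, the nuclear subunits of the respiratory chain and ATP synthase, the complexes that mitoribosomes serve, were lower in 75 of 83 tested genes and higher in 1, at a median of -1.71. Cytoplasmic ribosomal proteins were divided, with 43 of 83 lower and 30 higher at a median of -0.20. The mitoribosomal median of -0.76 lay between these, and the differences between lists were not tested.

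**Figure D3:**
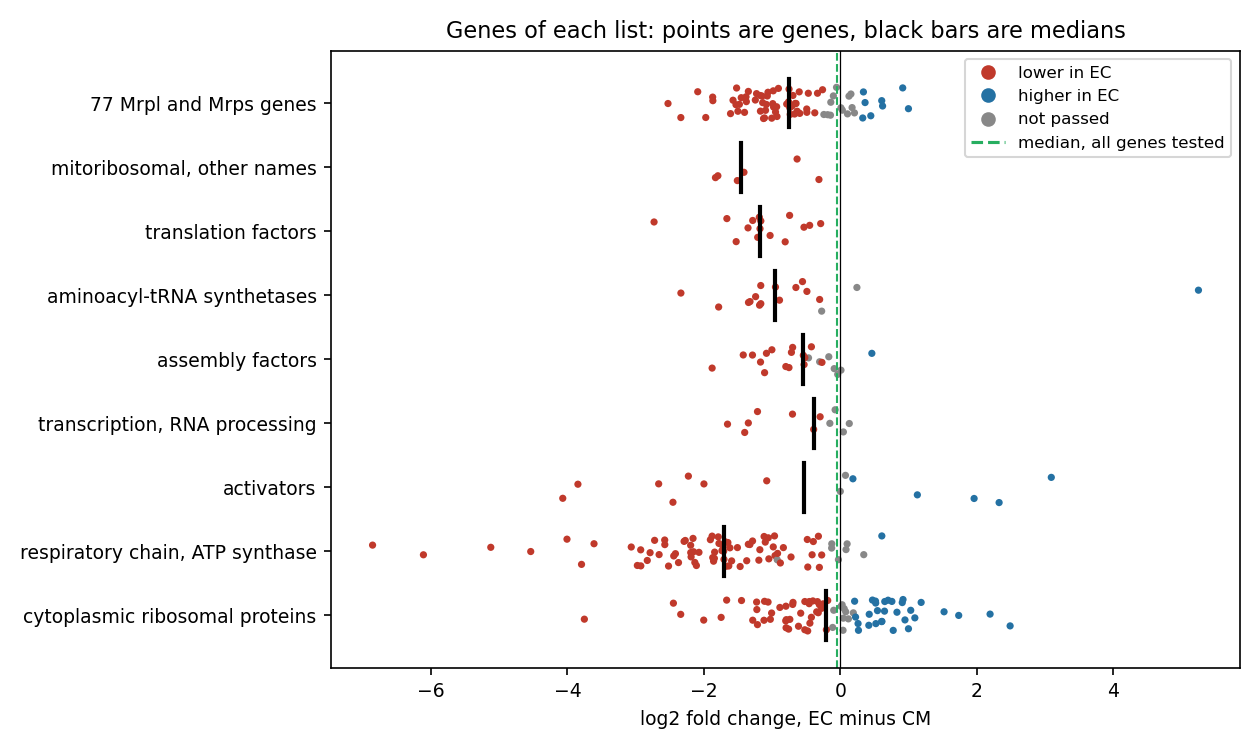
Log2 fold change (EC minus CM) of every tested gene in 9 lists, with points coloured by call, black bars at list medians and the dashed line at the median of all genes tested (-0.06). Respiratory chain genes are shifted furthest down (-1.71), the 77 Mrpl and Mrps genes lie at -0.76, cytoplasmic ribosomal proteins spread to both sides, and Lars2 stands alone at 5.25.

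Known activators of nuclear mitochondrial genes went both ways, with 7 of 14 lower in EC and 5 higher. The coactivator Ppargc1a had 9.60 and 9.01 CPM in EC and 133, 145 and 191 in CM (-4.07), and the nuclear receptor Esrrg 9.11 and 9.32 against 136, 129 and 133 (-3.85). Ppargc1b, Esrrb and Esrra were also lower (-2.66, -2.45 and -2.23). Higher in EC were Myc (38.3 and 34.6 CPM against 3.37, 5.11 and 4.397, 3.09), the coactivator Pprc1 (2.33) and Gabpb1 (1.96), a partner chain of the ETS factor GABP. Gabpa, its DNA-binding chain, was lower (-1.08). Mycn, a paralog of Myc, was also lower (18.7 and 16.5 CPM in EC, 68.0, 67.2 and 76.6 in CM, -2.00), and Hcfc1 was higher (1.13). Yy1 was not called (93.1 and 90.3 CPM in EC, 88.9, 95.5 and 90.9 in CM), and Nrf1, the nuclear respiratory factor, was higher by 0.18 (edgeR adjusted p = 0.043).

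Mitoribosomal promoters were open in endothelium. A promoter peak, meaning a deposited peak with any base within 1000 bp of the transcription start, was present for 77 of 77 genes in both Tie2Cre EC ATAC libraries, compared with 91.3% of the tested genes. It was present in at least 2 Gata4 het libraries for 77 (87.4% of tested genes) and in at least 2 Gata4 ko libraries for 77 (87.1%). In all 8 libraries 76 genes had one (82.6%). The exception was Mrps23, without a promoter peak in Gata4 ko replicate 4, the shortest ATAC list (55733 peaks, against 67201 to 130708 in the others). The start used for Mrps23 lies 10282 bp from its RefSeq start. The peaks sat at the start itself, with a median summit 32 to 42 bp upstream, and ranked at a median percentile of 90.3 to 93.8 by p within their lists, near the promoter peaks of all tested genes (86.4 to 93.5). A peak marks open chromatin and not its degree, and peak strength was not compared between genotypes.

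GATA4 peaks were more common at these promoters than at promoters in general. At least 2 of 3 Tie2-Cre libraries had a promoter peak for 23 members (29.9%, against 17.5% of tested genes), at least 2 of 3 Tnnt2-Cre libraries for 26 (33.8%, against 24%), and both held for 20 (26%, against 13.2%). No GATA4 library had a peak at 20 promoters (26%, against 47.8%). These counts rest on 2 libraries in each lineage, because the second list of each was short (2734 and 3603 peaks, against 17682 to 30447). The library counts were 26, 5 and 39 members for Tie2-Cre replicates 1 to 3 and 32, 5 and 47 for Tnnt2-Cre replicates 1 to 3, and in each the members' share was above that of all tested genes (6.49% against 2.18% in the shortest list). With lists cut to equal length, 4 members were counted for Tie2-Cre (5.19%, against 1.99% of tested genes) and 5 for Tnnt2-Cre (6.49%, against 1.87%). With a peak asked for in all 3 libraries the counts were again 4 and 5, against 1.93% and 2.7% of tested genes. Leaving out replicate 1 or 3 of a lineage gave 4 or 5 members, against 1.98% to 2.76% of tested genes. The difference between members and all genes was not tested. All 70 promoter peaks of the Tie2-Cre libraries and all 84 of the Tnnt2-Cre libraries overlapped a peak of both EC ATAC libraries. Every member promoter had an ATAC peak in both within the same window, so such overlap was largely set in advance. The share for all tested genes was not counted.

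**Figure D4:**
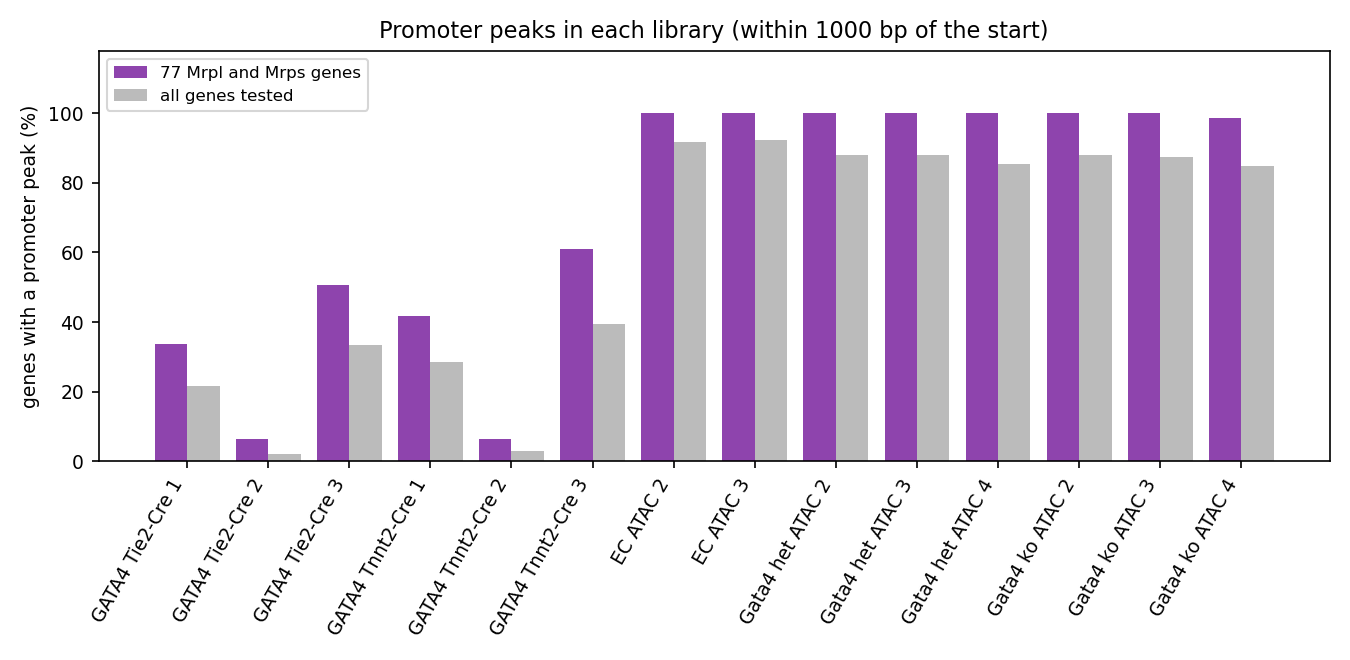
Share of genes with a promoter peak in each of 14 GATA4 and ATAC libraries, for the 77 Mrpl and Mrps genes and for all tested genes, with the replicate number after each group name. The members' bar is the taller in every library, and the short second GATA4 lists give 6.49% of members in both lineages.

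Only 1 promoter was selective for a lineage, with Mrpl53 at 2 Tie2-Cre and 0 Tnnt2-Cre libraries (1.54% of tested genes met that rule), and 0 members were selective for Tnnt2-Cre (4.16% of tested genes). The Tie2-Cre peaks at Mrpl53 were weak, with deposited folds over background of 4.16 and 4.68. Mrpl11 and Mrps17 had a promoter peak in all 6 GATA4 libraries (0.903% of tested genes). At Mrps17 the deposited fold was 11.9, 6.27 and 12.7 in Tie2-Cre replicates 1 to 3 and 12.3, 5.84 and 14.4 in Tnnt2-Cre replicates 1 to 3, and the summit lay 93 to 155 bp upstream of the start in each. At Mrpl11 it was 6.45, 4.93 and 5.09, then 8.85, 5.12 and 10.8. Mrps17 ranked above percentile 98 by p in each of the 4 long lists, while member promoter peaks had medians of 44.9 to 51.3 in those lists, near the middle. Among promoters with a peak in at least 2 libraries of a lineage, the 8 with summits nearest the start were those of Mrpl35, Mrpl3, Mrpl39, Mrpl44, Mrpl1, Mrps31, Mrps15 and Mrpl13, at a median distance of 14 to 63 bp.

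Genes lower and higher in EC were found both with and without a GATA4 promoter peak. Of the 20 genes with peaks in both lineages 15 were lower in EC and 2 higher (Mrpl17 and Mrps12), at a median log2 fold change of -0.92. Of the 20 without any peak 12 were lower and 4 higher (Mrps18b, Mrpl37, Mrpl27 and Mrpl43), at a median of -0.62. Of all 77 members, 56 were lower and 8 higher. The calls of all tested genes in these classes were not counted, and no test was made between the classes. The 2 most different genes were among those with few peaks: Mrpl15 had none at its promoter, and Mrps22 had 1, in Tie2-Cre replicate 3. Mrpl17, the most raised gene, had peaks in 2 libraries of each lineage, with deposited folds of 7.66 to 11.4 and summits 172 to 247 bp downstream of its start.

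RefSeq promoter sequences (build GRCm38.p6, 250 bases before to 50 after the start) matched 68 of the 77 genes, and 58 of these starts lay within 50 bp of the start in the count table. The promoters were searched for short motifs on both strands. Marked below are 4 of them: GATAA (GATA factors), CCGGAAG (ETS factors, among them GABP), ATGGCGGC (YY1) and a motif of NRF1 with 1 free base. The sequences below are the 250 bases before the start of 8 promoters that carry the results above, with every match to any of the 4 motifs in capitals. Mrps17, Mrpl16 and Mrpl52 have GATA4 peaks in 5 or 6 libraries and a GATAA match. Mrpl11 has peaks in all 6 and no match, Mrpl53 has the only lineage-selective peak, Mrps22 is the most lowered gene with a sequence here, and Mrpl17 and Mrpl43 are higher in EC.
Mrps17: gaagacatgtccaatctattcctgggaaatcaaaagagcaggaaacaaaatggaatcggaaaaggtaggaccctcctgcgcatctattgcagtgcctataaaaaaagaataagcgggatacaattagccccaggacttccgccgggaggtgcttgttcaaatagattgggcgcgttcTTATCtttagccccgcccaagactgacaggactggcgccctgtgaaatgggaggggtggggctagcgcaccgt
Mrpl16: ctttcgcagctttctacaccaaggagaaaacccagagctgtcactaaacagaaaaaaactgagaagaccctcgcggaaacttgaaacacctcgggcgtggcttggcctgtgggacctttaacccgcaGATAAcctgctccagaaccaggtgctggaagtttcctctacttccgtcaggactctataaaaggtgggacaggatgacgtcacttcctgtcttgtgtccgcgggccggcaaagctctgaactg
Mrpl52: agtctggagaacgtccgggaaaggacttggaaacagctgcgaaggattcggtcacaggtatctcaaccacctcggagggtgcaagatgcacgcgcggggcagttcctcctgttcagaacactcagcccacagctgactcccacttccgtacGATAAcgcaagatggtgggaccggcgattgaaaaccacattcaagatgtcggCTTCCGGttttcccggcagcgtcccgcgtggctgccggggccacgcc
Mrpl11: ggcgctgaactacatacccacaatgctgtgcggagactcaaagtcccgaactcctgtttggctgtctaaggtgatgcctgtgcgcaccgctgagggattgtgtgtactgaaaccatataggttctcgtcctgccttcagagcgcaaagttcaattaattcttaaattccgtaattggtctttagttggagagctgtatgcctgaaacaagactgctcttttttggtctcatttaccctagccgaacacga
Mrpl53: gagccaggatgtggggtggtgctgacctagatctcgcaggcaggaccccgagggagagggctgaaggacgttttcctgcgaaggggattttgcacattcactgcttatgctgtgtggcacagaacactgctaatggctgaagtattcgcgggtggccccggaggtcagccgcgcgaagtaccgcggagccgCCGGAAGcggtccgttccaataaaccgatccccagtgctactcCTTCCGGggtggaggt
Mrps22: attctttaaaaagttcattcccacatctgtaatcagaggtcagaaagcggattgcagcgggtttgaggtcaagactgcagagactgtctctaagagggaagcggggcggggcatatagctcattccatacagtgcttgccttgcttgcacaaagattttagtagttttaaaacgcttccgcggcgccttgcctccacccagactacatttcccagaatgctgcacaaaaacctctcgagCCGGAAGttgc
Mrpl17: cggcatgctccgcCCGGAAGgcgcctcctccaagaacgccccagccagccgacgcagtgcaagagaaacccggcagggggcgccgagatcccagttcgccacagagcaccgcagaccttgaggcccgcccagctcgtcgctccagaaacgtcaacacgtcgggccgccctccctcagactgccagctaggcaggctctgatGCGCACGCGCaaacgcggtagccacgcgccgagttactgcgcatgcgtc
Mrpl43: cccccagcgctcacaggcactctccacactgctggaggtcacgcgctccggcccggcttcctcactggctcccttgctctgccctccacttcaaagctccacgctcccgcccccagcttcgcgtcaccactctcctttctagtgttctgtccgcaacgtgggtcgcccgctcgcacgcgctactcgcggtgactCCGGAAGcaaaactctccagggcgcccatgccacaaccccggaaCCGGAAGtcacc

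In order, these windows lie at chr5:129715247-129715496 (plus strand), chr19:11770165-11770414 (plus strand), chr14:54426659-54426908 (plus strand), chr19:4962056-4962305 (plus strand), chr6:83108858-83109107 (plus strand), chr9:98601680-98601929 (minus strand), chr7:105811088-105811337 (minus strand) and chr19:45006443-45006692 (minus strand). Each ends at the base before the RefSeq start of its gene. For Mrps17 the start in the count table, from which its peak summits are given, lies further downstream, at chr5:129715528. The distances between summits and motifs given below allow for this. The reverse of GATAA reads TTATC and that of CCGGAAG reads CTTCCGG, and both occur in capitals above. The ETS match of Mrps22 lies 11 bases before its start, those of Mrpl43 at 56 and 12 before, and those of Mrpl53 at 59 and 16 before.

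ETS, NRF1 and YY1 motifs were frequent. At least 1 of the 3 was found in 39 of the 68 windows (57.4%), against 14.7% of all promoters and 28.2% of those of tested genes. The ETS motif was in 24 (35.3%, against 9.21% of all promoters and 17% of tested genes), the NRF1 motif in 13 (19.1%, against 4.78% and 9.91%) and the YY1 motif in 12 (17.6%, against 2.39% and 4.69%). The median GC content was 58.2% in members and 61.0% in tested genes. The ETS motif was in 6 of the 8 genes higher in EC (75%) and in 15 of 50 lower genes with a sequence (30%). Among the higher genes with the motif were Mrps12, Mrpl34 and Mrpl43, which lost their calls when some single libraries were left out. The share by call was not counted over all tested genes, and the difference was not tested. The YY1 match lay after the start in 11 of 12 genes. Its letters also read as a start codon followed by an alanine codon, and whether a match after the start is coding sequence was not tested. The first 30 bases from the start show it for Mrpl27 at chr11:94653791-94653820 (plus strand), Mrps18a at chr17:46111004-46111033 (plus strand) and Mrps5 at chr2:127587426-127587455 (plus strand).
Mrpl27: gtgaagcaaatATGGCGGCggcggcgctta
Mrps18a: aggtgcgttccaagATGGCGGCcctcaggg
Mrps5: gcATGGCGGCggccgtacgcgctgcaggct

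The GATAA motif was in 17 of 68 windows (25%), against 25.7% of all promoters and 15.9% of those of tested genes. Among members with GATA4 promoter peaks in at least 2 libraries of each lineage it was in 10 of 17 with a sequence (58.8%), and among members without any peak in 1 of 18 (5.56%). Over all tested genes the same classes had 26.5% of 1506 and 13.6% of 5121. Of the 17 members with GATAA, 16 were lower in EC and 1, Mrps2, was higher. Of all 68 members with a sequence, 50 were lower and 8 higher. The calls of all tested genes with GATAA were not counted, and a link between motif and call was not tested. A GATA4 promoter peak in at least 1 library was found for 16 of the 17. Summits lay at a median of 165 bp from the nearest GATAA over these 16 genes, and within 100 bp in 7 of them. In Mrpl16 all 5 summits lay 1 to 25 bp from the match, and in Mrps17 all 6 lay 1 to 53 bp from it. In Mrps36 the 4 summits lay 415 to 1033 bp away. These matches are letters in a window, and a window without a match may be bound through other letters or sites outside it.

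Within 50 kb of the start, GATA4 peaks were common for members as for other genes. At least 2 Tie2-Cre libraries had one for 56 members (72.7%, against 66.3% of tested genes), at least 2 Tnnt2-Cre libraries for 63 (81.8%, against 75.8%), and both held for 52 (67.5%, against 58.2%). All 6 libraries had one for 7 members (9.09%, against 6.87%): Mrpl55, Mrpl11, Mrps17, Mrpl35, Mrpl53, Mrpl23 and Mrpl4. Mrpl37 was the only member without a peak in any of the 6 libraries (6.09% of tested genes). Mrps9, Mrpl14 and Mrps26 had peaks in at least 2 Tnnt2-Cre and 0 Tie2-Cre libraries (5.38% of tested genes), and 0 members had the reverse (2.47%). With lists cut to equal length the counts were 12 members for Tie2-Cre (15.6%, against 14.3% of tested genes) and 11 for Tnnt2-Cre (14.3%, against 14.5%). A window of this size holds a median of 3 other transcription starts for members (0 to 12), so a peak inside it may belong to another gene.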

How the data were processed

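RNA values are read counts per gene, deposited by the authors and made with featureCounts 1.6.3 on mm10 genes with strand used, per the file headers. The submitters' processing notes name, with no roles, deepTools 3.3.1, MACS2 2.2.4, STAR 2.7.3a and the aligners Bowtie2 2.2.9 and Bowtie 1.1.1. Each GATA4 and ATAC library has its own peak list, for which the authors deposited a fold over background (a ratio), −log10 p and −log10 q values. No source used here states a control for the pulldown. The 2 CM ATAC samples were not analysed here.

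Counts of all 14851 genes past filterByExpr were tested with the quasi-likelihood F test of edgeR 4.0.16 under R 4.3.3 (TMM factors, Benjamini-Hochberg threshold 0.05), and with DESeq2 1.42.0 as an alternative. Standard errors are the size of the log2 fold change over the root of F. TPM used the exon length in the table. In 3 simulated runs, 200 of 14851 genes were changed. The EC and CM test then recovered 61.3% of 1.5-fold, 78.4% of 2-fold and 89.1% of 4-fold changes. False calls averaged 11.7 a run. Between the measured EC and CM libraries 77.8% of genes were called, a far larger share than was changed in the simulation. Because adjusted p depends on how many genes change, the simulated rates do not describe the main test. Peaks, motifs and figures used Python 3.11.15, pandas 2.3.3, numpy 2.4.6 and matplotlib 3.10.9. Starts are outermost exon ends in the count table. Peak counts leave out 144 genes that map to more than 1 chromosome or strand (13 of them tested). The members, lists, tests and alternatives were chosen with earlier results of these data known, and motifs and TPM scaling after the values were seen. Named members were the 10 greatest changes each way, those that did not pass, the 5 highest and 3 lowest TPM of each cell type, the 8 GATA4 promoter summits nearest the start, the Mrps18 paralogs, cardiomyopathy genes, and the stalk and membrane proteins. In each other list up to 4 genes with the greatest change each way were named. Among the activators, Esrra, Gabpa, Mycn and Nrf1 were named outside this rule. Polrmt and Yy1, and members shown for a motif, a selective peak, an overlapping gene or a divergent start, were picked after their values were seen.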

Additional observations from a re-analysis of the deposited data

How the results depend on the processing

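The count of members lower in EC was 56 under RLE factors, library size alone, Rn45s left out, no count filter, DESeq2 and a replicate block, 55 to 57 with any 1 library left out, 50 with TPM scaling and 41 in a test against 1.5-fold. The count of higher members was 10 with library size alone, 7 without filter or by DESeq2, 4 to 8 with 1 library left out (4 without EC replicate 1 and 5 without CM replicate 2), 15 with TPM scaling and 2 against 1.5-fold. The replicate block gave 56 lower and 6 higher members and lost Mrps12 and Mrpl34. Same-numbered libraries did not deviate together over the tested genes (correlations -0.02 and -0.009). The deviations of the 2 EC libraries mirror each other, so these values are not independent and cannot settle whether the numbers pair the libraries. The members' median was -0.42 with TPM scaling, which was added after seeing the data, and TPM scaling lost 6 lower calls and added 7 higher ones. Without count filter the median of all genes was -0.23, since more genes are tested.

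The sign changed with TPM scaling for Mrpl44 (0.20), Mrps27 (0.15), Mrps34 (0.24), Mrpl50 (0.28), Mrpl20 (0.10) and Mrpl46 (0.20), and for the called genes Mrps10 (0.0046) and Mrpl24 (0.080). It also changed without count filter for Mrpl38 (-0.030) and Mrpl14 (-0.0095), and by DESeq2 for Mrpl38 (-0.0038). With 1 library left out, the value ranged from -0.026 to 0.25 for Mrpl22, from -0.17 to 0.14 for Mrpl38, from -0.34 to 0.41 for Mrps6, from -0.10 to 0.12 for Mrpl14 and from -0.16 to 0.017 for Mrpl50. None of these 5 genes passed the main test. The cause was not tested.

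GATA4 promoter counts for Tie2-Cre were 4 with lists of equal length and 4 with all 3 libraries (1.99% and 1.93% of tested genes), and 4 to 22 with 1 library left out (1.98% to 17.3%). For Tnnt2-Cre they were 5 and 5 (1.87% and 2.7%), and 5 to 26 (2.72% to 23.9%). The members' share was above that of tested genes at each of these promoter settings. Within 50 kb the Tie2-Cre counts were 12 and 15 (14.3% and 15.6% of tested genes), and 15 to 54 (15.6% to 65.9%), and the Tnnt2-Cre counts 11 and 16 (14.5% and 19%), and 16 to 63 (19% to 75.7%). With equal lists the Tnnt2-Cre share within 50 kb, 14.3% of members, was not above that of tested genes. The length of the second lists limits these counts. ATAC promoter counts were 76 or 77 under every alternative run.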

Other observations

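Mitoribosomal genes often share a promoter region with a gene on the other strand. A divergent start within 1000 bp was found for 27 of the 77 members (35.1%), against 13.2% of tested genes. In 26 pairs both genes were tested. Both were lower in EC in 6 pairs, both higher in 1 (Mrps18b with Ppp1r10), and the genes were called in opposite directions in 8. In the other 11 pairs at least 1 gene did not pass. The partners' median log2 fold change was 0.01, and partner and member values had a Spearman rho of 0.07 over 26 pairs, which share libraries. Mrpl46 and Mrps11 are each other's partner, with starts 42 bp apart, and so count as 2 of the pairs. Mrps11 was lower in EC (13.6 and 12.04 CPM, against 25.7, 27.3 and 28.0 in CM), whereas Mrpl46 was not called (20.7 and 20.6 against 25.2, 22.1 and 21.1).

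Among named genes, Mrpl18 and its partner Tcp1, a subunit of the cytoplasmic chaperonin, were both lower in EC (-1.53 and -1.24), with starts 238 bp apart. Mrpl30 was lower (-1.52) while Mitd1, 142 bp away, was higher (0.83). Mrpl43 was higher (0.45) while Peo1, the mitochondrial helicase gene, was lower (-0.54) at 116 bp. Mrpl27 was higher and Eme1, 37 bp away, did not pass (-0.03).

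Exons of 7 members overlap a gene on the opposite strand. Counting used the strand, and whether this kept such reads apart in every library was not tested. The greatest share is that of Mrps25, where 58.3% of exon bases lie across from Nr2c2. On the same strand 3 members share exon bases with another gene: Mrps6 (18.6%, Slc5a3), Mrpl53 (2.26%, Ccdc142) and Mrps23 (2.13%, Cuedc1).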
